A study of Caenorhabditis elegans with 2 samples.

Results

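The genes egl-44 and egl-46 of Caenorhabditis elegans were examined as possible sites of EGL-44 binding, 2 genes of 19973 nuclear protein-coding genes. EGL-44 is the worm member of the TEA domain (TEAD) family, proteins that bind DNA through the TEA domain and act with YAP coactivators at the end of the Hippo pathway. EGL-46 is a zinc finger protein that works with EGL-44 in neurons, where the pair keeps touch receptor genes off in the FLP neurons. Loss of either gene gives egg-laying defects, the source of the name egl. Transcription factors often bind their own genes or those of their partners, and the comparison asked whether EGL-44 was found at either gene.

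Both genes were chosen by name, with earlier results of these data known. For each gene, every region was taken whose summit, the position of highest enrichment that the file gives for the region, lay inside the gene or within 5000 bp of it. The data came from anti-GFP ChIP-seq, which recovers DNA attached to a protein, on whole young adults of strain RW12173, aged 66.5 h after synchronization as starved L1 larvae. These worms carried GFP joined to egl-44 at its own locus by CRISPR together with unc-119(+), in the unc-119(tm4063) background, and all of the worms studied shared these alleles. There were 2 biological replicates and no other genotype, stage or treatment, so no test between groups was possible and what follows is a description. The position of the tag within the gene was not stated in the sources used here, and in whole worms a site used in few cells cannot be told apart from a weakly used one.

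Each of 4 ranked lists of regions came with a short list of peaks. For both replicates together, called pooled here, 79828 regions were ranked and 1553 were peaks. A conservative selection had 1442 peaks of 76689 regions, replicate 1 had 769 of 53820 and replicate 2 had 568 of 40873. The selection rests on the irreproducible discovery rate (IDR), the estimated rate at which regions of that rank or better fail to recur between 2 inputs. Ranked regions carry −log10 of the global IDR, and the peaks had 2 or more (a rate of 0.01 or less). The signal is the deposited height of a region. Its scaling between lists is not stated, so signals were compared within a list, and the read depth behind them is unknown.

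EGL-44 had a single peak at its own gene and none at egl-46. The egl-44 peak had a signal of 99.54 in the pooled list and lay in an intron of the gene at chrII:5936009-5936318 (assembly ce11). The gene itself runs from 5928802 to 5940830 on the plus strand. At egl-46, on chromosome V from 6679123 to 6681573 on the minus strand, the highest of the ranked regions had a signal of 38.3 and fell short of the threshold. A peak in such a window is not rare: of all protein-coding genes, 16.9% had a pooled peak within the same distance, and of the 683 genes at least as long as egl-44 it was 27.1%. A pooled peak with its summit inside the gene itself, as at egl-44, was found at 2.78% of protein-coding genes, a share not matched for gene length.

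The sequence of the egl-44 peak is shown with that of the next strongest region of egl-44, which did not pass the threshold, and the strongest region near egl-46, so that the 3 can be compared. Each is 300 bases centred on the summit, read from the ce11 genome on the strand of the gene, with the 11 bases at the summit in capitals. The egl-44 peak (chrII:5936015-5936314) was 37.0% G or C, the second egl-44 region (chrII:5933998-5934297) 41.7% and the egl-46 region (chrV:6684570-6684869) 47.7%. None of the 3 held CATTCC, the core of the site that TEAD proteins are known to bind, on either strand.
egl-44 peak: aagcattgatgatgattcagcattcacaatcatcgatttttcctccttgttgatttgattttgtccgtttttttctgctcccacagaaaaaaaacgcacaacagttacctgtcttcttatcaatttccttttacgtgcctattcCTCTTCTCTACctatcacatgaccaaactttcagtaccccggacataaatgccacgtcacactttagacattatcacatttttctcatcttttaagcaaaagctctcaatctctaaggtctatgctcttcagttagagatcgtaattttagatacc
egl-44 second region: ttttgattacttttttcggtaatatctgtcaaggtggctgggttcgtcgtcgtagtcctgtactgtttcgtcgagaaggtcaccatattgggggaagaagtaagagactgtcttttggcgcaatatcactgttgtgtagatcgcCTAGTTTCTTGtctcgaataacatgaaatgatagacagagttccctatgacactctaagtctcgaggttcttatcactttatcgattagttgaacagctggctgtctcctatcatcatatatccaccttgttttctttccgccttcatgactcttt
egl-46 strongest region: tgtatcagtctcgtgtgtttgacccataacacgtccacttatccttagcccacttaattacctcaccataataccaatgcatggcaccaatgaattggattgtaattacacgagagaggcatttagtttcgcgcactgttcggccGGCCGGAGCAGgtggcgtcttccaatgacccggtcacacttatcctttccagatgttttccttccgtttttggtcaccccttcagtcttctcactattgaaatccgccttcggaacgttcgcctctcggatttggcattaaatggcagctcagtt

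The egl-44 peak sat just upstream of a start codon that transcripts from 3 of the annotated starts share, and far from the first annotated start. The annotation gives egl-44 13 transcripts with 9 distinct starts. The peak summit, at 5936164, was 7362 bp downstream of the first start and 2678 bp downstream of the start at 5933486. It was 277 bp upstream of the start at 5936441 and 493 bp upstream of that at 5936657. Those 2 starts fall exactly on a start codon, as do 4 of the 9 starts, so their transcript models have no 5′ untranslated stretch and may not mark where transcription begins. For the transcripts that begin farther upstream, the peak lay inside an intron. With the exons of all 13 transcripts merged, the peak lay in a gap of 2859 bp (5933582 to 5936440). The intron of a single transcript can be longer than this gap. Whether the peak is called a promoter or an intron peak thus depends on the transcript model.

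In windows at the starts farther upstream no region was above 19.9, whereas the peak also lay in the windows of the starts farther downstream. In a window from 1000 bp upstream to 200 bp downstream, the starts at 5928802 and 5928830 held no ranked region in any of the 4 ranked lists. The window of the start at 5933486 held 4 pooled regions, the highest with a signal of 18.76, below the pooled median of 21.1. Replicate 1 had 2 regions there, with at most 19.9, and replicate 2 had 1, with 14.57. Past the window, 661 bp downstream of the start at 5933486, lay the second strongest pooled region of the locus (52.12, with 35.52 in replicate 1). Replicate 1 had a region 344 bp downstream of the first start, with a signal of 16.31. The windows of the starts at 5937047 and 5937051 held 2 pooled regions each, the peak (883 and 887 bp upstream) and a region of 37.32 (49 and 45 bp downstream). That second region was ranked in both replicates, and 13.4% of the pooled list was higher.

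**Figure D1:**
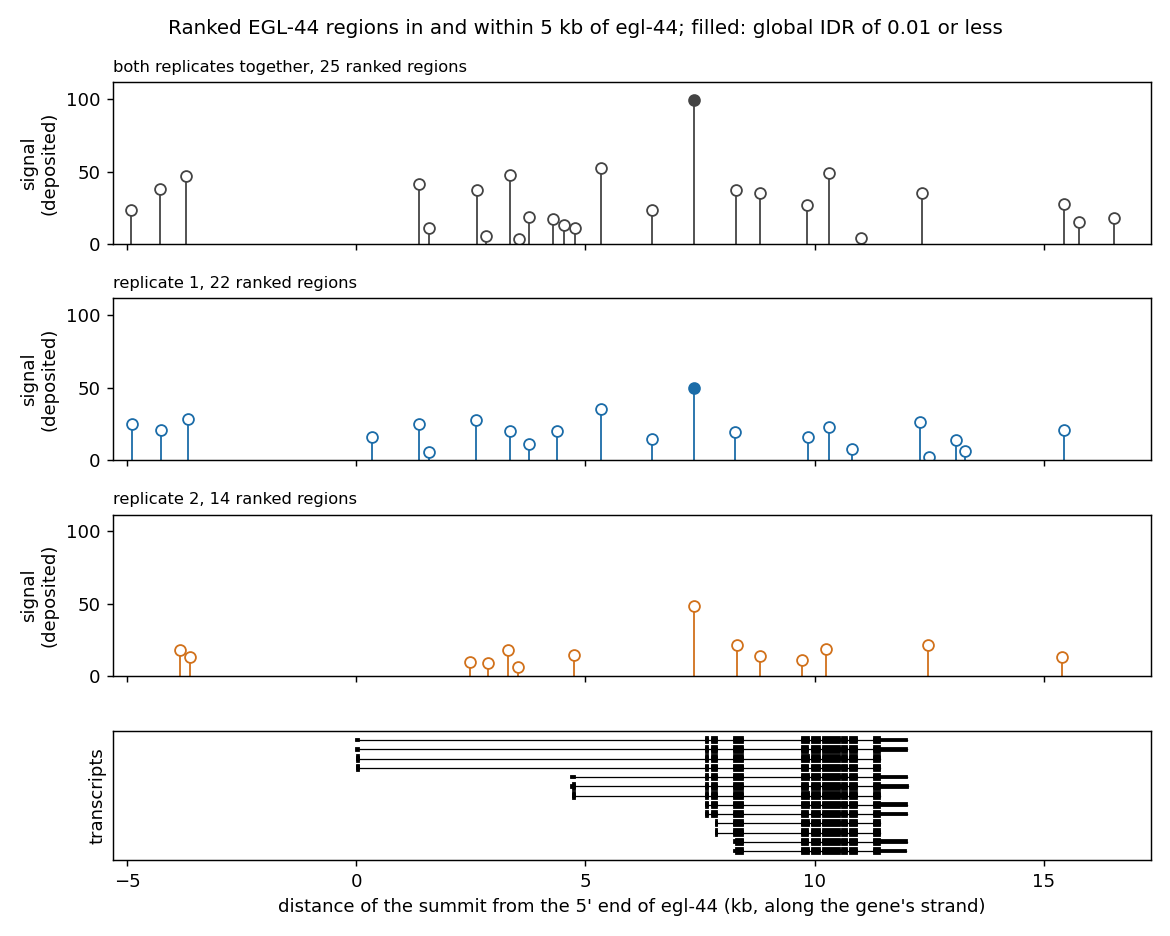
Deposited signal of each ranked region (vertical axis) against the distance of its summit from the 5′ end of egl-44 in kb (horizontal axis), for both replicates together, replicate 1 and replicate 2, over the annotated transcripts (thick: coding, thinner: untranslated exons). Filled points have a global IDR of 0.01 or less: the region 7362 bp into the gene is filled in the pooled list (99.54) and in replicate 1 (49.91), and open in replicate 2 (48.38).

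The peak was the highest point of the locus in both replicates, with summits at most 13 bp apart. Replicate 1 gave a signal of 49.91 there, with the summit 13 bp from the pooled one. Replicate 2 gave 48.38, with the summit at the same base as the pooled one. Within the replicate 1 list the peak was 1.41 times the second highest region of the locus (35.52), within replicate 2 it was 2.24 times (21.64), and in the pooled list 1.91 times (52.12). The second highest region thus differed between the replicates: it was in the same intron in replicate 1, and past the 3′ end of egl-44, at F28B12.6, in replicate 2.

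The region was in the peak list of replicate 1 and missing from that of replicate 2, where it fell just short of the limit. Peaks of the conservative list lay at 16.0% of protein-coding genes, those of replicate 1 at 9.65% and those of replicate 2 at 7.05%. In replicate 1 the egl-44 region ranked 753 of 53820 by signal and had a global IDR of 0.00657, inside the limit. Among the 769 peaks of replicate 1 it ranked 634 by signal, with 49.91 below their median of 60.9. In replicate 2 it ranked 370 of 40873 by signal and 651 by global IDR, and its global IDR of 0.0133 was just outside. The peak list of replicate 2 holds 568 regions, so a list cut by signal alone at that length would have held egl-44. Of the 370 replicate 2 regions with at least this signal, 25 (6.76%) were outside its peak list. The corresponding number in replicate 1 was 119 of 753 (15.8%). Ranked regions past the limit numbered 586 in replicate 2 and 784 in replicate 1, more than the 568 and 769 peaks. A region outside a peak list had thus not always failed the limit, and how many of the 25 or 119 had failed it was not counted.

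Among the peaks that were in the replicate 1 list only, egl-44 was close to the limit in replicate 2. Of the 1553 pooled peaks, 367 overlapped a peak of replicate 1 and none of replicate 2. Of these, 355 overlapped a ranked region of replicate 2, with a median −log10 global IDR of 0.9, where egl-44 had 1.88. Only 12 of the 355 had a value as high as egl-44 or higher. Peaks of replicate 2 are left out of the 355 by definition, and egl-44 is itself one of the 355. In the pooled list itself egl-44 had 3.19, and the peak stayed in the list at a global IDR of 0.001.

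**Figure D2:**
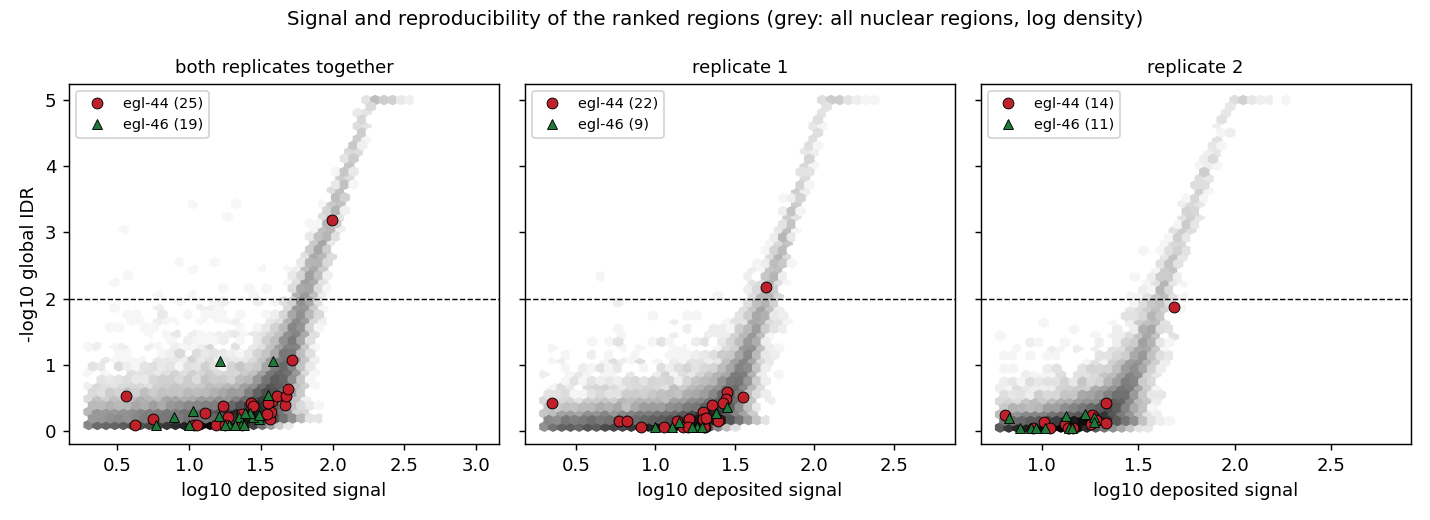
The −log10 global IDR of each ranked region (vertical axis) against log10 of its deposited signal (horizontal axis) in the pooled, replicate 1 and replicate 2 lists, with egl-44 regions as red circles, egl-46 regions as green triangles and all nuclear regions in grey; the dashed line is the limit of 2. One egl-44 region is above the line in the pooled list (3.19) and in replicate 1 (2.18) and just below it in replicate 2 (1.88), and every egl-46 region is below it.

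Apart from the peak, the egl-44 locus held many weaker regions. The pooled ranked list had 25 regions in the window, 18 of them inside the gene (15 in introns and 3 in coding exons), 3 upstream and 4 downstream. Across all protein-coding genes the median was 11 regions. Per kb of window, egl-44 had 1.13 regions against a median of 0.891, and 27.3% of genes had more. Their signals ran from 3.67 to 99.54 with a median of 26.9, where the whole list had a median of 21.1. The list gives regions of up to 310 bp, and 6 of the 25 overlapped the next one, so the 25 are not separate sites.

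After the peak, the pooled signals at egl-44 dropped off at once. The second region (52.12, −log10 global IDR 1.07) was in the same intron, 5345 bp from the 5′ end of the gene. In replicate 1 it had 35.52, and no region of replicate 2 overlapped it. A region of 49.11 covered a coding exon 10312 bp into the gene and was ranked in both replicates, with 22.6 in replicate 1 and 19.04 in replicate 2. The longest gap between merged exons, the first one of 4614 bp, held 9 regions with at most 47.56. The region of 47.56 had 20.14 in replicate 1 and 18.23 in replicate 2. For transcripts from the start at 5933486 or later, this gap is upstream sequence and not an intron. The region over the exon at 8294 bp had 37.32 in the pooled list, 19.81 in replicate 1 and 21.41 in replicate 2. No egl-44 region other than the peak had a −log10 global IDR above 1.07 in the pooled list, 0.59 in replicate 1 or 0.42 in replicate 2.

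Around the 3′ end of egl-44 the regions differed in height. The strongest lay 312 bp past the end of the gene, inside F28B12.6, with 35.29 in the pooled list (16.1% of the list was higher), 26.7 in replicate 1 and 21.64 in replicate 2. Its −log10 global IDR was 0.43 in the pooled list and 1.15 in the list behind the conservative selection. The region nearest the stop codon in the pooled list was 422 bp before it, in an intron, with a signal of 4.23. The list behind the conservative selection also held a region of 27.07 with its summit 43 bp past the stop codon, which neither the pooled nor a replicate list had at that point.

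Both genes had some ranked regions in both replicates. At egl-44, 13 of the 25 pooled regions (52.0%) overlapped a ranked region of each replicate by at least 1 bp, 8 were in replicate 1 only, 2 in replicate 2 only and 2 in neither. At egl-46 it was 7 of 19 (36.8%), with 3 in replicate 1 only, 5 in replicate 2 only and 4 in neither. Of all pooled ranked regions, 32.6% overlapped both. Neighbouring pooled regions can overlap the same replicate region: the 13 at egl-44 met 11 distinct regions of replicate 1 and 12 of replicate 2, and the 7 at egl-46 met 5 of each. With summits at most 100 bp apart the egl-44 count was 7, and with 50% reciprocal overlap it was 8.

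The egl-46 locus had no region that stood out from its neighbours. Its 19 pooled regions ran from 5.89 to 38.3, with a median of 22.2, close to the list median of 21.1. The highest was 3146 bp upstream of the single annotated start, in sequence without an annotated gene at the summit, with 28.01 in replicate 1 and 16.71 in replicate 2. The second, 35.55, was past the 3′ end of egl-46 and inside the neighbouring gene cest-34. The highest was 1.08 times the second in the pooled list, 1.16 times in replicate 1 and 1.01 times in replicate 2. Replicate 2 put its highest egl-46 region elsewhere, at 18.76 inside cest-31, where the pooled summit was 4648 bp past the gene end.

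Within egl-46 itself, 5 pooled regions had their summits inside the gene, 3 in coding exons and 2 in introns. The highest was 30.6, in the last coding exon, with 23.98 in replicate 1. In replicate 2 the region that overlapped it most had 8.81, with its summit in the untranslated end of egl-46, and a neighbour that overlapped in part, with its summit in an intron, had 9.31. Next was a region of 26.79 over the first exon, 213 bp downstream of the start, with 18.34 in replicate 1 and 13.29 in replicate 2. The highest replicate 2 region inside egl-46 was another one, 18.56, in a coding exon 1169 bp downstream of the start. It overlapped the pooled region of 17.71 and no ranked region of replicate 1. The window from 1000 bp upstream to 200 bp downstream of the start held 1 pooled region, 342 bp upstream with a signal of 20.87, which overlapped no ranked region of either replicate. Replicate 1 had a different region there, 896 bp upstream, with 9.95, and replicate 2 had none.

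The −log10 global IDR at egl-46 was at most 1.06 in the pooled list, 0.37 in replicate 1 and 0.26 in replicate 2, against 3.19, 2.18 and 1.88 at egl-44. The nearest pooled peak to egl-46 was 20042 bp past its 3′ end (signal 65.87), and in the conservative list it was 64436 bp away. The egl-44 peak was also isolated: the next pooled peak was 83944 bp upstream of the gene (181.31). Pooled regions were frequent at egl-46 for its size, with 1.53 per kb of window, and 5.04% of genes had more. Of these 19 regions, 4 overlapped the next one and 5 had summits inside the gene. The list behind the conservative selection had 14 regions in the window. At egl-46 this density of weak pooled regions went with no peak.

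**Figure D3:**
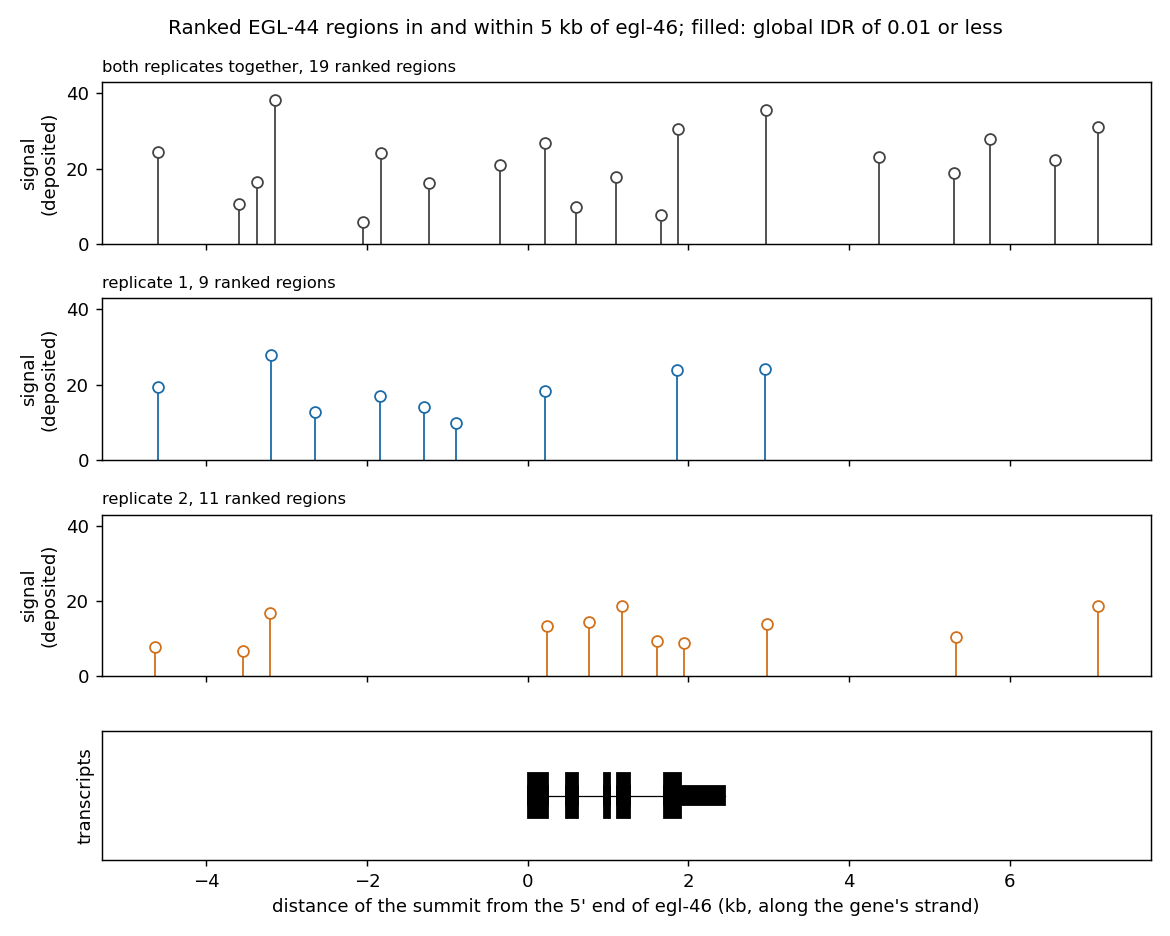
Deposited signal of each ranked region (vertical axis) against the distance of its summit from the 5′ end of egl-46 in kb (horizontal axis), for both replicates together, replicate 1 and replicate 2, over the annotated transcript (thick: coding, thinner: untranslated). No point is filled, since none had a global IDR of 0.01 or less, and the highest values are 38.3 (pooled), 28.01 (replicate 1) and 18.76 (replicate 2).

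Set against all genes, egl-44 was in the upper tail and egl-46 below the middle. The highest pooled signal in the window of egl-44 was 99.54, and 6.99% of the 18344 genes with a ranked region had a higher one. The share was 10.7% in replicate 1 and 5.32% in replicate 2. For egl-46 (38.3) the shares were 69.1% in the pooled list, 51.8% in replicate 1 and 71.1% in replicate 2. The median gene had 45.1 in the pooled list, 28.5 in replicate 1 and 22.3 in replicate 2. A longer gene has a wider window, and egl-44 spans 12029 bp where egl-46 spans 2451 bp.

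**Figure D4:**
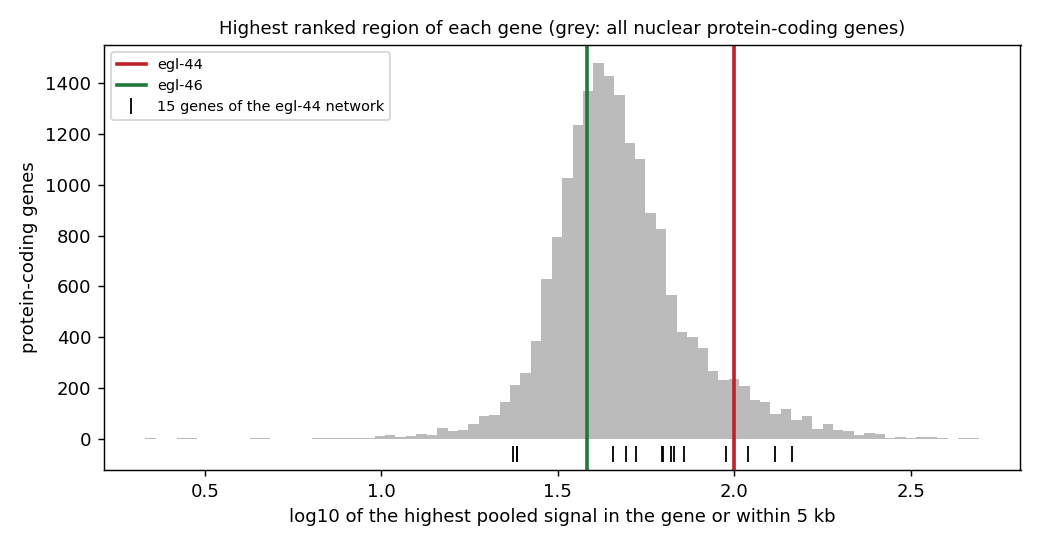
Number of nuclear protein-coding genes (vertical axis) by log10 of the highest pooled signal in the gene or within 5 kb (horizontal axis); the red line is egl-44 (99.54), the green line egl-46 (38.3) and the ticks are 15 listed genes of the Hippo pathway, touch receptor fate and the cell cycle. The egl-44 line is in the right tail and the egl-46 line is left of the median gene (45.1).

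The TEAD core word was present in the weaker regions of both genes and absent near the summit of the egl-44 peak. CATTCC or its reverse complement GGAATG lay within 100 bp of the summit in 4 of 25 egl-44 regions (16.0%) and in 5 of 19 egl-46 regions (26.3%), and in 10.6% of all pooled ranked regions. The number is a description of letters and shows no site. The 9 occurrences are given with 10 bases on either side, on the strand of the gene, with the word in capitals and named by the pooled signal of the region. At egl-44 they were in the first gap between merged exons (a pair), a coding exon and past the 3′ end. The summits of the regions with that pair lay at -401 and -157 bp from the start at 5933486 (negative: upstream). At egl-46, 2 were inside the gene, 2 were past its 3′ end and 1 was 3367 bp upstream.
egl-44 region of 17.16: cttctcacctCATTCCgttgattaaa
egl-44 region of 13.01: tccagcatacCATTCCattatttcct
egl-44 region of 49.11: attacctatcGGAATGgatctatcac
egl-44 region of 27.74: aaaatcggagCATTCCattgtcgggt
egl-46 region of 30.96: tctcatagagCATTCCagagggaggg
egl-46 region of 23.03: tggcgtatggCATTCCtaagtatcca
egl-46 region of 17.71: atattgttttCATTCCaggtcaccga
egl-46 region of 9.96: gagtttctccCATTCCcccatcaatc
egl-46 region of 16.34: tatttttatcCATTCCcaaatgagct

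The closest of these to a summit was in egl-46, where the centre of the word was 4 bp from the summit of the 17.71 region, in an intron. That region overlapped a ranked region of replicate 2 and none of replicate 1. The word 90 bp from the summit of the 49.11 region at egl-44 was the one in the strongest region. The 3 regions printed above in 300 bases, the upper 2 of egl-44 and the first of egl-46, had none. The second region of egl-46 (35.55) had 1 in the 300 bases around its summit, more than 100 bp from it.

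The windows also hold other genes. Annotated starts in the egl-44 window belong to the protein-coding genes B0034.2, F28B12.1 and F28B12.6, the ncRNA gene F28B12.5 and the piRNA gene WBGene00173618. The egl-44 peak was 753 bp from the start of that piRNA gene, 4699 bp from that of F28B12.6 and 6763 to 8988 bp from the other 3 starts. In the egl-46 window, starts belong to the protein-coding genes cest-31 and cest-34 and to 8 ncRNA genes. The strongest egl-46 region was 756 bp from the start of the ncRNA gene K11G9.10 and 903 bp from that of K11G9.9, both nearer than the egl-46 start at 3146 bp.

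A list of 15 genes of the Hippo pathway, touch receptor fate and the cell cycle was chosen with earlier results of these data known. The shares below are a description, with no allowance for gene length. Of these 15 genes, 6 (40.0%) had a pooled peak within 5000 bp, where all genes had 16.9%. In the conservative list it was 7 of the 15, where all genes had 16.0%. In replicate 1 it was 4 of the 15, where all genes had 9.65%, and in replicate 2 it was 3, where all genes had 7.05%. Among Hippo pathway genes, par-5, a 14-3-3 protein gene, had 145.11 in the pooled list (83.76 in replicate 1 and 47.24 in replicate 2). The merlin homologue nfm-1 had 109.02, the LATS kinase gene wts-1 had 94.45 and the coactivator gene yap-1 had 66.02. The wts-1 peak was in the pooled and conservative lists and in neither replicate list. The yap-1 peak was in the pooled list only, and the highest ranked region near yap-1 had 43.96 in replicate 1 and 16.45 in replicate 2. Its pooled summit lay at -4438 bp from the 5′ end of yap-1 (negative: upstream), near the window edge, and that of wts-1 at -121 bp. The kinase genes cst-1 and cst-2 had no peak in any list. The 14-3-3 gene ftt-2 had no pooled peak and 3 in the conservative list.

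Among the neuronal and cell cycle genes, mec-3, a homeodomain regulator of touch receptor fate, had a peak of 62.23 in the pooled and conservative lists and none in either replicate list, and cye-1, the cyclin E gene, had 130.12 (74.12 in replicate 1 and 46.25 in replicate 2). The tubulin gene mec-7 had a peak only in the conservative list and mec-17, a tubulin acetyltransferase gene, only in that of replicate 1. The channel gene mec-4, mec-18 and the regulators unc-86 and zag-1 had none. With 99.54, egl-44 came after par-5, cye-1 and nfm-1 and before wts-1, whereas the 38.3 of egl-46 was above only cst-1, cst-2 (24.24 each) and unc-86 (23.67). The median of the 15 was 62.8.

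The genes most like egl-44 and egl-46 were found by the distance between their highest log2 signals in 3 ranked lists (pooled, replicate 1 and replicate 2). Among 17619 genes, egl-44 was closest to B0286.1, fkh-6, a forkhead transcription factor gene, ntl-2, a subunit gene of the CCR4-NOT complex, and paic-1, a purine synthesis enzyme gene. These share 1 region, with 100.66 in the pooled list, 49.5 in replicate 1 and 48.89 in replicate 2, at a distance of 0.025. The next was CD4.11 (101.88, 49.5 and 48.69). For egl-46 they were F46G11.2 and F46G11.6 (38.78, 27.94 and 18.94), F08D12.4 (38.98, 27.74 and 18.94), and C13B9.2 and copd-1, a coatomer subunit gene (38.42, 27.57 and 19.08). They were chosen for these values, which are given as a description.

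The edge of the 5000 bp window bears on egl-46 more than on egl-44. The outermost egl-44 regions inside it had 23.4, 4903 bp from the gene, and 17.84, 4508 bp from it, and the first ones outside had 26.58 and 32.62. At egl-46 they were 30.96 and 24.43 inside, and 9.75 and 30.81 outside. The region of 30.96, 4648 bp from egl-46, was the third highest of its 19 and the highest in replicate 2 (18.76), so the window sets which region is highest there in replicate 2.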

How the data were processed

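EGL-44 ChIP-seq regions of 2 biological replicates were taken from 8 peak lists, of which 4 are ranked and 4 thresholded. The signal of each region is as the authors deposited it, and the −log10 global IDR in the ranked lists is likewise deposited. Regions are on ce11, per the labels. The aligner and peak caller are named in no source used here, nor is the scaling of the signal. No control library was analysed here. The 8 columns with the signals of the 2 inputs in the ranked lists carry no replicate name and were not used.

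Every region was checked to lie within its chromosome in the RefSeq genome of this build, from which sequences were read. Genes and transcripts came from Ensembl release 115 and gene bounds for the alternative from RefSeq. An intron here is a stretch of a gene outside the exons of all its transcripts merged. Summits were assigned to a gene within 5000 bp, and regions counted as found in a replicate with 1 bp of overlap. Where several replicate regions overlapped, the strongest gave the value, so its summit can lie to one side. The word was sought within 100 bp of each summit. Named genes were the 2 members, genes with starts in the windows, the list of 15 genes and the 5 genes most alike. The members, the list and the alternatives were chosen with earlier results of these data known. No statistical test was made. The code was tested on simulated data. Depth is unknown, so no depth-based interval is given. Calculations used Python 3.11.15, NumPy 2.4.6, pandas 2.3.3, SciPy 1.17.1 and Matplotlib 3.10.9.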

Additional observations from a re-analysis of the deposited data

How the results depend on the processing

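Of 62 other settings tried over 11 results, 36 left the count within 1.5 times, or the percent within its 95% Wilson interval, and 26 moved it. That interval treats regions or genes as independent and measures no spread between replicates, so small shifts can fall outside it. The egl-44 peak count was 1 under each alternative other than the list of replicate 2, so leaving out one replicate gave 0 to 1, and the egl-46 count was 0 throughout. Leaving out one replicate gave 14 to 22 ranked regions at egl-44 (25 in the pooled list) and 9 to 11 at egl-46 (19). Around egl-46, a window of 2000 bp gave 10 regions, with 4 in both replicates, and the gene body alone gave 5, with 3 in both. At egl-44, 8 regions were in both replicates with 50% reciprocal overlap and 7 with summits at most 100 bp apart, against 13. The word within 50 bp of the summit was in 1 egl-44 region and 3 egl-46 regions. The percent of ranked regions above the strongest was 0.903 to 1.4 at egl-44 with one replicate left out (0.591 in the pooled list) and 10.7 to 25.2 at egl-46 (12.3). For egl-46 it was 15.7 with 2000 bp, 24.4 in the gene body and 12.8 in the list behind the conservative one. The percent of protein-coding genes with a peak (16.9) was 10.2 with 2000 bp, 2.78 in gene bodies, 16.0 in the conservative list, 30.1 at a global IDR of 0.05, 7.68 at 0.001 and 7.05 to 9.65 with one replicate left out. Narrower windows hold fewer regions by construction, and otherwise the cause was not tested. Read depth is unknown, so a missing region cannot be told apart from one too shallowly sequenced.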
